A study of Homo sapiens with 6 samples.

Results

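A set of 9 genes was chosen by name with earlier results of these data known. They are the Tribbles pseudokinases TRIB1, TRIB2 and TRIB3, the sestrins SESN1, SESN2 and SESN3, the growth brakes DDIT4 and EIF4EBP1, and stress-induced NUPR1. All 9 were found among the 55401 gene names of the deposited tables, and all 9 were among the 15148 genes tested, those whose mean reached 1 TPM in any group. TPM, a unit of transcript abundance, scales each library to the same total and each gene by its transcript length, so levels can be set side by side between genes. The libraries came from RMS13, a human rhabdomyosarcoma line, and from RMS13-R, a line with derived resistance to MAL3-101, a small-molecule inhibitor of HSP70 chaperones. The 3 groups held 2 libraries each, A and B: parental RMS13 cells with DMSO, the vehicle, parental cells with 10 µM MAL3-101, and RMS13-R cells with 10 µM MAL3-101, each for 9 h. All cells grew in RPMI medium with serum. RMS13-R without the drug was not analysed here, so what belongs to the line and what belongs to its response to the drug cannot be told apart. The resistant libraries carry a single line name, and the labels do not say whether that line was a clone or a pool. Nothing in them ties A and B to separate cultures, so each p-value rests on the spread between libraries, which may be technical.

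The mTORC1 kinase complex drives protein synthesis and cell growth when amino acids and growth factors are present, and several of these genes encode brakes on it. Sestrins bind GATOR2, a complex upstream of the Rag GTPases, and so hold back amino acid signals to mTORC1, and SESN2 itself senses leucine. DDIT4, also called REDD1, restrains mTORC1 through the TSC1-TSC2 complex, and EIF4EBP1, or 4E-BP1, binds the cap-binding factor eIF4E until mTORC1 phosphorylates it. Tribbles proteins have a kinase fold with little or no catalytic activity and act as scaffolds, for the ubiquitin ligase COP1 among others, and TRIB3 also binds AKT and the transcription factor ATF4. NUPR1 is a small stress-induced chromatin-associated protein. TRIB3, SESN2, DDIT4, EIF4EBP1 and NUPR1 are known targets of ATF4, the transcription factor of the integrated stress response, while SESN3 is best known as a FOXO target.

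The stretch before the transcription start is shown for 3 members that rose with the drug in parental cells, TRIB3, SESN2 and DDIT4, and for TRIB2, which fell. The sequences are those of RefSeq on GRCh38.p14, the 250 bases before the start, 5′ to 3′, and capitals mark motifs named below. Where a gene has several starts, the first listed is shown.
TRIB3, chr20:381045-381294, plus strand: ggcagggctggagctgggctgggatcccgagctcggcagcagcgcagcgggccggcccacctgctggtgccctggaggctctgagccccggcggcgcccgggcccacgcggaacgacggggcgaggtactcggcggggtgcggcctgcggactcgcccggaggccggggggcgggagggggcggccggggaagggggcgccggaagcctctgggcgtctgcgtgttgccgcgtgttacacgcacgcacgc
SESN2, chr1:28259268-28259517, plus strand: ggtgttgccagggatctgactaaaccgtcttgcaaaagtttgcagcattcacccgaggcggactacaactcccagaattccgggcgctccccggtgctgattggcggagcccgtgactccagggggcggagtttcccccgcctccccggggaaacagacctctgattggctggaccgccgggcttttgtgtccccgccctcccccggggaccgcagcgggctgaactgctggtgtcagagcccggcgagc
DDIT4, chr10:72273674-72273923, plus strand: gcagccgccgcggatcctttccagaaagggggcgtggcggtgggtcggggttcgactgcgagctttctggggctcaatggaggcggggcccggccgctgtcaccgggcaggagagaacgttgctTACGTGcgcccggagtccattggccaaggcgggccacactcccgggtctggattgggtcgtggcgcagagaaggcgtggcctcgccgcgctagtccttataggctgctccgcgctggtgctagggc
TRIB2, chr2:12716686-12716935, plus strand: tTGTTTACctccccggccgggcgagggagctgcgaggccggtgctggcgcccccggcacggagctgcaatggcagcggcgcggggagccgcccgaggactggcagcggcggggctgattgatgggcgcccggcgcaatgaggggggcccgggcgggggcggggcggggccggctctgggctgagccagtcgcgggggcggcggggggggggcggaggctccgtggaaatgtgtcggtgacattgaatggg
Of the 9 members, 6 had such sequences, in 10 windows of 300 bases, from 250 before to 50 after a start. Both strands were searched for TGATGCAA and the looser TGATGNAA, which contains it, forms of the element that ATF4 binds with C/EBP partners. Neither was found in any of the 10 windows, which says only that these letters are not in this stretch. Over all 35116 windows in the table they occurred in 0.866% and 3.62%. TACGTG, an E-box-like motif of hypoxia and related bHLH-PAS factors, stood in the DDIT4 window from base -126 to -121, against 3.24% of all windows. GTAAACA, a forkhead motif, stood on the other strand of the TRIB2 window from -249 to -243, against 3.42%. TGACNNNGC, the antioxidant element, occurred in 13.3% of all windows. It lay in all 3 overlapping TRIB3 windows, which share 1 copy on the other strand, 41 to 49 bases after the start of the window shown, and in 1 of the 3 SESN1 windows. CACGTG (7.26% of all windows), GAANNTTC (6.77%), a pair of heat shock units, and the endoplasmic reticulum stress element (0.0769%) were found in none of the 10.

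Of 15 rhabdomyosarcoma and skeletal muscle markers, 12 were tested and 3, MYF5, MYF6 and MYH8, stayed under 1 TPM in every library. MYOD1, the muscle-determining factor, lay between 484 and 816 TPM, MYOG between 320 and 688 TPM and DES between 318 and 479 TPM over the 6 libraries. On average MYOD1 was lowest in resistant cells, at 485 TPM, and MYOG highest there, at 679 TPM. MYF5 was listed at 0 throughout. With the drug in both lines, 6 of the 12 were higher and 5 lower in resistant cells. Among the lower ones were CHRNA1, an acetylcholine receptor gene, at 50.99 against 313.5 TPM, and TNNT2, a troponin gene, at 126 against 320.3 TPM. The higher ones included CHRNG, another receptor gene, at 51.9 against 26.9 TPM, and DES, at 475 against 319 TPM. What these shifts have to do with the results was not tested. Of 8 epithelial markers 7 stayed under 1 TPM in every library, and all 8 summed to 4.11 and 4.27 TPM with DMSO, 7.05 and 6.88 TPM in treated parental cells, and 1.2 and 0.870 TPM in resistant cells. The eighth, EPCAM, averaged 3.53, 5.85 and 0.210 TPM in the same order, and its part in the results was not tested either. Blood and immune markers stayed under 1 TPM for 7 of 8 as well, with sums from 1.04 to 2.70 TPM. Of 5 endothelial markers 4 stayed under 1 TPM, and what the fifth, TEK, has to do with the results was not tested. TEK stood at 19.9 TPM on average in resistant and 1.41 TPM in treated parental cells. Like CHRNA1, TNNT2, CHRNG, DES and EPCAM, it was chosen after its values were seen. The share of TPM from mitochondrial ribosomal RNA was 1.92% and 1.97% in the treated parental pair, against 0.533% and 0.565% in the DMSO pair and 0.784% and 0.767% in the resistant pair. With TPM rescaled without the mitochondrial genome, the members called were the same. The DMSO pair spread most, with 171 of 15148 genes at least 2-fold apart between A and B, against 67 for treated parental and 40 for resistant cells. In bulk RNA, fewer cells with a transcript and less of it in each cell cannot be told apart.

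In parental cells, MAL3-101 went with higher levels of 5 of the 9 genes, TRIB3, SESN2, DDIT4, EIF4EBP1 and NUPR1, and a lower level of 1, TRIB2. TRIB1, SESN1 and SESN3 did not pass the test. The test was limma's moderated test on log2(TPM + 1) over all 6 libraries, with Benjamini-Hochberg adjustment over all tested genes and calls at an adjusted p under 0.05. It called 40.8% of all tested genes in this comparison, 22.6% higher and 18.2% lower, so a call alone is common. Without treated parental library A or B, 3158 or 3353 genes were called over the whole table, while 5 or 6 of the members were. The 2 groups did not overlap for the 6 members called, as for 69.8% of all tested genes. Calls of 2-fold or more were rarer, at 3.49% of all tested genes, and 5 of the 9 members were among them. The median log2 fold change of the 9 genes was 1.22, against 0.02 over all tested genes.

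**Figure D1:**
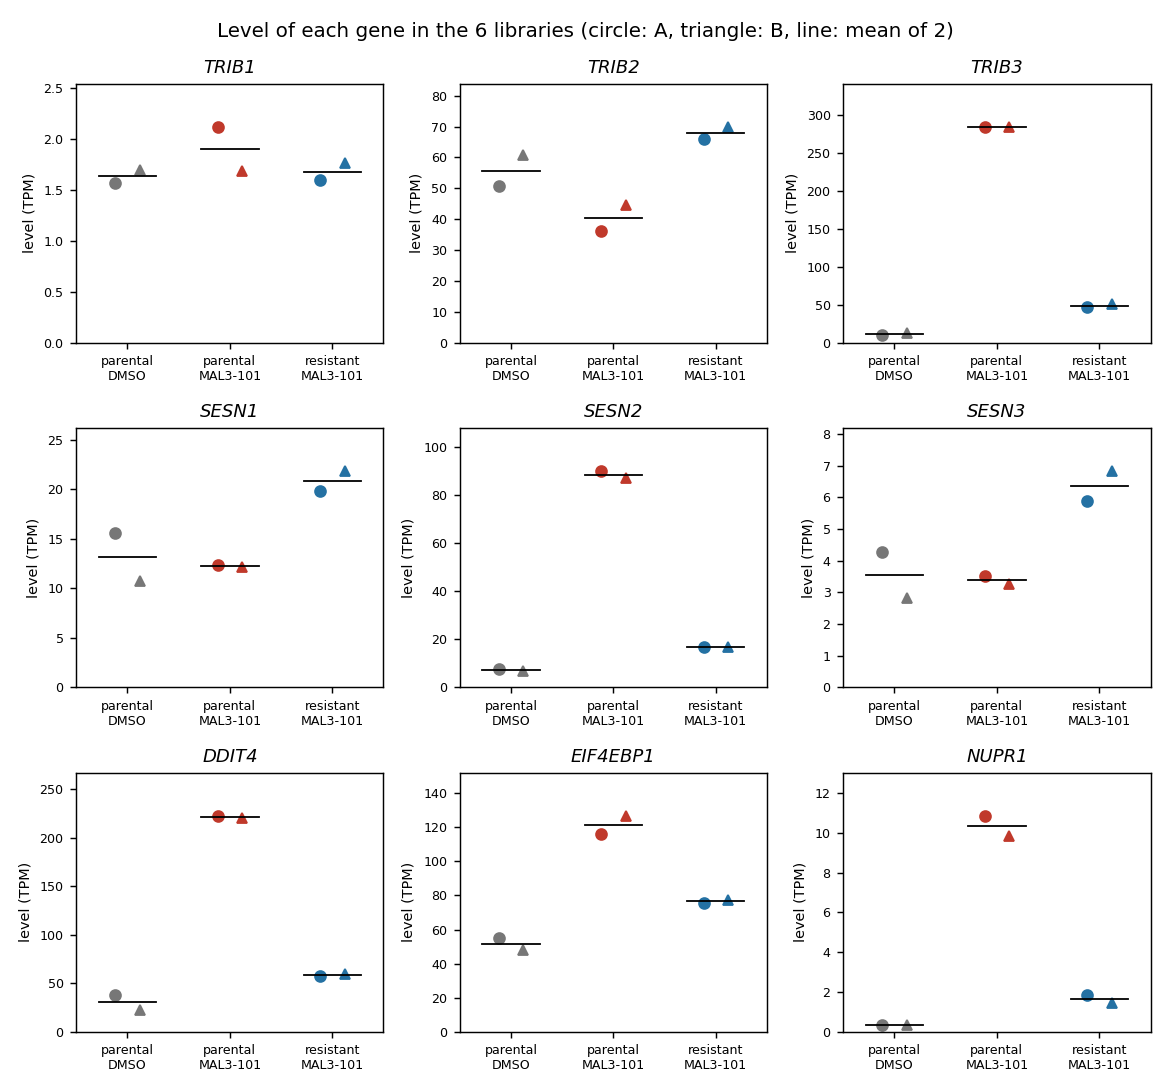
Level of each of the 9 genes in TPM (vertical axis, from 0) in the 6 libraries, by group. Circles are libraries A, triangles libraries B and lines the mean of 2. TRIB3, SESN2, DDIT4, EIF4EBP1 and NUPR1 are highest in parental cells with MAL3-101, while TRIB2, SESN1 and SESN3 are highest in resistant cells.

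Among the Tribbles genes, TRIB3 carried the response. In the order A and B, it stood at 10.4 and 13.3 TPM with DMSO, at 284.3 and 284.5 TPM in parental cells with MAL3-101, and at 47.5 and 50.5 TPM in resistant cells with MAL3-101. The 3 groups did not overlap, and both treated parental libraries lay far above the other 4. Its rise of 4.49 (SE 0.10, adjusted p = 8.09e-07 by limma) on the log2 scale in parental cells ranked 4 from the top among 15148 genes.

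TRIB2, the most abundant Tribbles gene with DMSO, moved the other way and by less. Its levels were 50.8 and 60.6 TPM with DMSO, 36.2 and 44.6 TPM in treated parental cells, and 66 and 69.9 TPM in resistant cells. The treated parental libraries were the lowest of the 6 and the resistant ones the highest, with no overlap between groups. Its log2 fold change with MAL3-101 in parental cells was -0.46 (SE 0.12, adjusted p = 0.0183 by limma). That call was lost without DMSO library B (-0.33, adjusted p = 0.0591 by limma), without parental MAL3-101 library A (-0.31, adjusted p = 0.116) and with no filter on low levels (adjusted p = 0.0737).

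TRIB1 was scarce throughout, between 1.57 and 2.12 TPM in the 6 libraries, and its groups overlapped. The difference between treated and DMSO parental cells was 0.14 on the log2 scale, with a 95% interval from -0.22 to 0.49. An interval of that width leaves room for a change of either sign.

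The family's make-up therefore shifted from TRIB2 to TRIB3. TRIB2 supplied 80.6 ± 0.514% (SD, n = 2) of summed Tribbles TPM with DMSO, 12.4 ± 1.61% in treated parental cells and 57.3 ± 0.0821% in resistant cells. The sum of the 3 genes was 69.2 ± 9.06 TPM, 327 ± 5.81 TPM and 119 ± 4.99 TPM in the same order. With 2 libraries against 2 an exact permutation test of a share cannot reach 0.05, so the shares are given as values. STK40, a Tribbles-related pseudokinase outside the set, rose in parental cells from 42.8 ± 0.0778 to 74.7 ± 1.37 TPM, by 0.79 (SE 0.05, adjusted p = 0.0001 by limma).

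**Figure D2:**
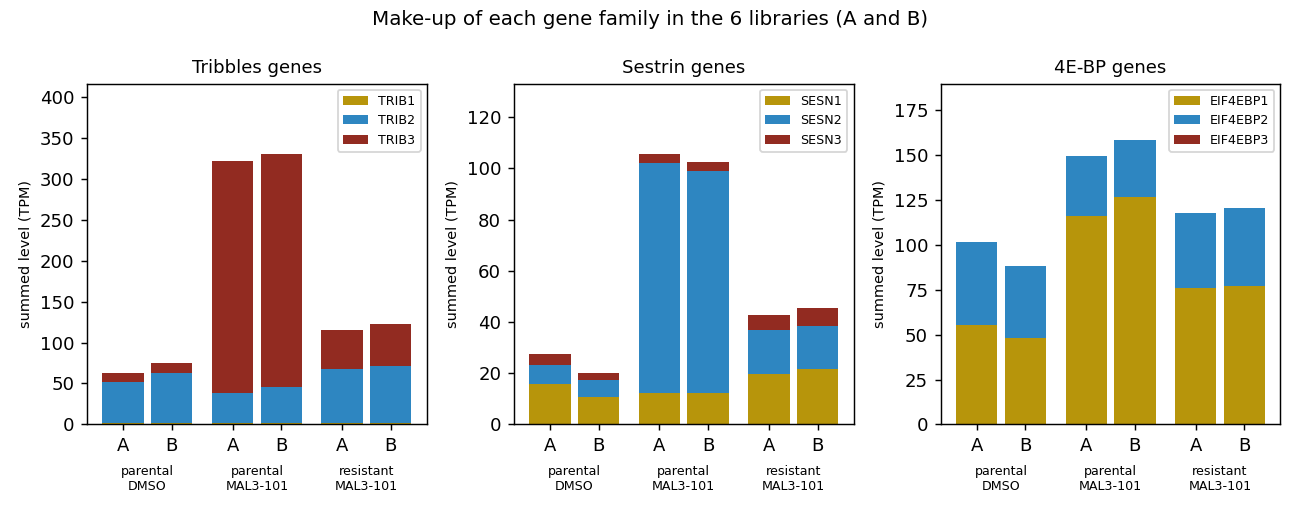
Summed level in TPM (vertical axis, from 0) of the Tribbles, sestrin and 4E-BP genes in each library, A and B, with each gene's part in colour. TRIB3 and SESN2 make up most of their families' sums only in parental cells with MAL3-101, while EIF4EBP3 is listed at 0 in all 6 libraries.

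Of the sestrins, SESN2 was called in parental cells with the drug, while SESN1 and SESN3 were not. SESN2, a leucine-binding sestrin, stood at 7.44 and 6.64 TPM with DMSO, at 89.8 and 87.0 TPM in treated parental cells, and at 16.9 and 16.7 TPM in resistant cells. No groups overlapped, and the values of a pair lay close together. SESN2 rose by 3.48 (SE 0.08, adjusted p = 8.09e-07 by limma) on the log2 scale in parental cells.

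SESN1 lay at 15.6 and 10.7 TPM with DMSO, 12.3 and 12.1 TPM in treated parental cells, and 19.8 and 21.8 TPM in resistant cells. The DMSO libraries lay on either side of the treated parental pair, and the resistant pair lay above both. Its difference with the drug in parental cells was -0.08 (95% interval -0.45 to 0.29), and its sign hung on the DMSO pair. Without DMSO library B, the lower of that pair, it was -0.33 and passed (adjusted p = 0.0223 by limma), and without library A it was 0.17 and did not (adjusted p = 0.137). SESN3 followed the same order at lower levels, with 4.26 and 2.83 TPM, then 3.53 and 3.25 TPM, then 5.89 and 6.82 TPM. For SESN3 the drug's difference in parental cells was -0.03 (95% interval -0.44 to 0.38), and 0.20 without DMSO library A.

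SESN2's part of summed sestrin TPM was 30.1 ± 3.99% (SD, n = 2) with DMSO, 84.99 ± 0.00847% in treated parental cells and 38.2 ± 2.002% in resistant cells. SESN1 was the most abundant sestrin with DMSO, at 55.1 ± 2.87%, and again in resistant cells, at 47.4 ± 1.13%. The stacked bars of the gene families show both shifts.

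DDIT4, which signals to the TSC complex, stood at 37.8 and 22.6 TPM with DMSO, at 222.6 and 219.9 TPM in treated parental cells, and at 57.7 and 59.6 TPM in resistant cells. The groups did not overlap, although the DMSO libraries spread widely, with A well above B. DDIT4 rose by 2.88 (SE 0.19, adjusted p = 0.0001 by limma) in parental cells, and by between 2.52 and 3.23 when each library was left out in turn. DDIT4L, its close relative, rose from 2.79 ± 0.643 to 8.84 ± 1.40 TPM (SD, n = 2), by 1.38 (SE 0.17, adjusted p = 0.00106).

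EIF4EBP1, the eIF4E-binding brake on translation, was already abundant with DMSO, at 55.3 and 48.1 TPM. It stood at 116 and 127 TPM in treated parental cells and at 75.8 and 77.2 TPM in resistant cells, with no overlap between groups. Its rise of 1.22 (SE 0.08, adjusted p = 7.44e-05 by limma) was the smallest of the 5. EIF4EBP2, which encodes the related 4E-BP2, fell from 43.1 ± 4.48 to 32.2 ± 1.08 TPM (SD, n = 2), with a difference of -0.40 (SE 0.08, adjusted p = 0.00707) that did not pass without parental MAL3-101 library B (adjusted p = 0.0609). EIF4EBP3 was listed at 0 in all 6 libraries. EIF4EBP1 thus made up 54.6 ± 0.139% of summed 4E-BP TPM with DMSO, 79.0 ± 1.57% in treated parental cells and 64.2 ± 0.224% in resistant cells.

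NUPR1 was the least abundant of the 5 and near the lower end of detection at rest. It was listed at 0.340 TPM in both DMSO libraries, at 10.9 and 9.86 TPM in treated parental cells, and at 1.84 and 1.43 TPM in resistant cells. The groups did not overlap. The rise of 3.08 (SE 0.15, adjusted p = 2.22e-05 by limma) rests on the pseudocount, as the DMSO level lies under it: it was 4.57 with a pseudocount of 0.1 and 1.52 with 5, and passed with each. How many reads lie behind these low values cannot be read from TPM. Its relative NUPR2, given in the tables as NUPR1L, was listed at 0 in every library.

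**Figure D3:**
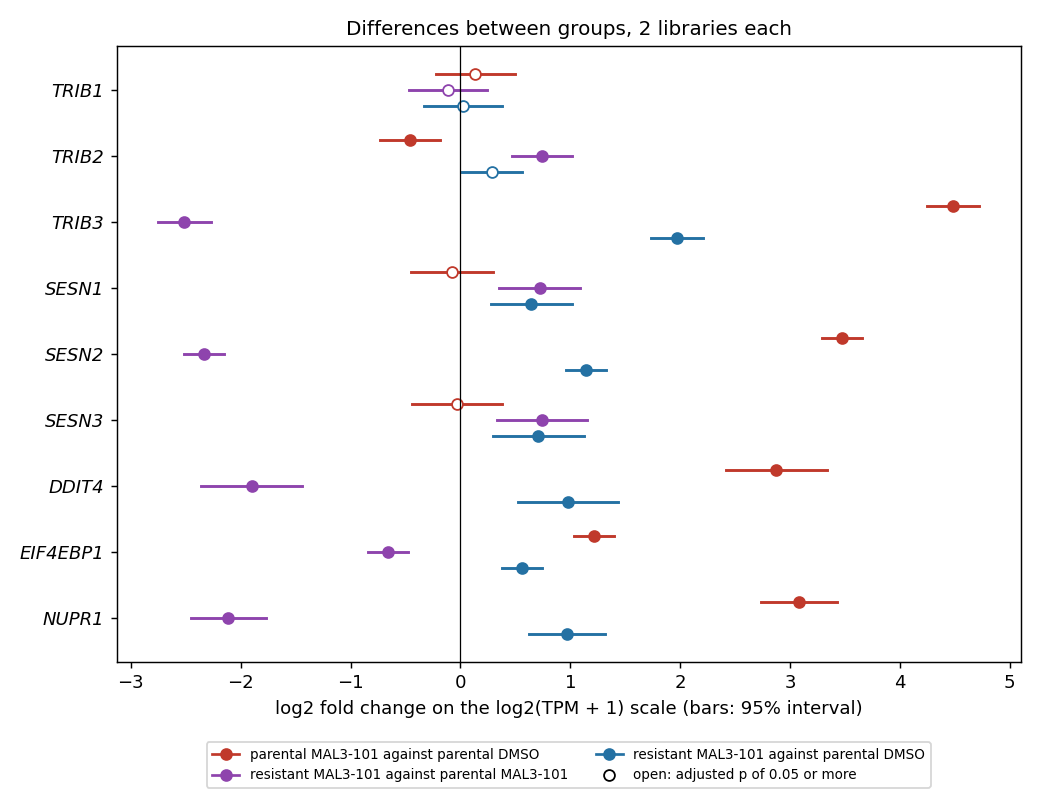
Log2 fold change of each gene on the log2(TPM + 1) scale (horizontal axis) in the 3 comparisons, with 95% intervals from limma. Filled points passed an adjusted p under 0.05. The 5 genes that rose with MAL3-101 in parental cells lie left of 0 for resistant against treated parental cells and right of 0 for resistant cells against DMSO.

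With MAL3-101 in both lines, resistant cells had lower levels of the same 5 genes, TRIB3, SESN2, DDIT4, EIF4EBP1 and NUPR1, and higher levels of TRIB2, SESN1 and SESN3. TRIB1 did not pass the test. Of all tested genes, 56.1% were called in this comparison, 34.8% lower and 21.3% higher, so 8 of 9 calls must be read against a high background. Calls of 2-fold or more took 10.7% of all tested genes and 4 of the 9 members. The split of all calls moved with scaling, from 3228 higher and 5267 lower to 4241 and 4356 with median-ratio and 4348 and 4232 with upper-quartile scaling, which shifted the median gene by 0.11. The 8 calls among the members and their directions were the same under both.

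TRIB3 was lower in resistant cells by 5.80-fold in TPM, at -2.51 on the log2 scale (SE 0.10, adjusted p = 4.74e-06 by limma). SESN2 was 5.27-fold lower, at -2.33 (SE 0.08, adjusted p = 2.22e-06). DDIT4 was 3.77-fold lower, at -1.90 (SE 0.19, adjusted p = 0.000203), and NUPR1, the scarcest of them, 6.34-fold lower, at -2.11 (SE 0.15, adjusted p = 3.85e-05), or -1.21 with a pseudocount of 5. EIF4EBP1 differed least, 1.59-fold lower, at -0.66 (SE 0.08, adjusted p = 0.000367). For all 5 the resistant pair lay below the treated parental pair, as the plot of levels by library shows. The groups also did not overlap for 83.4% of all tested genes.

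The 3 genes that were higher in resistant cells differed by less than 2-fold. TRIB2 was 1.68-fold higher in TPM, or 0.74 on the log2 scale (SE 0.12, adjusted p = 0.00140 by limma), which held in every alternative tried. SESN1 was 1.70-fold higher, at 0.72 (SE 0.16, adjusted p = 0.00648), and SESN3 1.87-fold higher, at 0.74 (SE 0.17, adjusted p = 0.00916). Without resistant library B neither sestrin passed, with 0.66 (adjusted p = 0.0545 by limma) for SESN1 and 0.65 (adjusted p = 0.0740) for SESN3. SESN3 was also lost without parental MAL3-101 library B (0.70, adjusted p = 0.0617). TRIB1 differed by -0.11 (95% interval -0.47 to 0.24).

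Set against DMSO-treated parental cells, resistant cells with the drug still stood higher for 7 of the 9 genes. By limma 0 were lower, and 0 also at an unadjusted p under 0.05. Of all tested genes 50.6% were called here, and 8.95% at 2-fold or more on the log2(TPM + 1) scale, which 2 members, TRIB3 and SESN2, reached. NUPR1, at a low level, missed that fold on this scale only, as its ratio in TPM was 4.81. The test called 20.9% of all tested genes higher and 29.7% lower in this comparison (3160 and 4502, against 4071 and 3763 with median-ratio and 3880 and 3927 with upper-quartile scaling). Without resistant library A or B, 4955 or 5004 genes were called. The groups did not overlap for 8 of the members and for 75.8% of all tested genes.

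TRIB3 was 4.15-fold higher in TPM, at 1.97 on the log2 scale (SE 0.10, adjusted p = 1.57e-05 by limma), and SESN2 2.38-fold, at 1.15 (SE 0.08, adjusted p = 4.18e-05). DDIT4 was 1.94-fold higher, at 0.98 (SE 0.19, adjusted p = 0.00504), a value that was 0.62 (adjusted p = 7.98e-05) without DMSO library B and 1.34 without DMSO library A. EIF4EBP1 was 1.48-fold higher, at 0.56 (SE 0.08, adjusted p = 0.000939). NUPR1 was 4.81-fold higher, at 0.97 (SE 0.15, adjusted p = 0.00140), which became 1.97 with a pseudocount of 0.1 and 0.31 with 5.

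For SESN1 and SESN3 the resistant level exceeded the DMSO level by 0.64 (SE 0.16, adjusted p = 0.0120 by limma) and 0.71 (SE 0.17, adjusted p = 0.0126). The SESN1 call was lost without resistant library A (0.71, adjusted p = 0.0505 by limma) or B (0.58, adjusted p = 0.0860), and without DMSO library B its value was 0.39. The SESN3 call was lost without resistant library B (0.62, adjusted p = 0.0944), and both were lost with no filter on low levels. TRIB2 did not pass, at 0.29 (SE 0.12, adjusted p = 0.0759, 95% interval 0.01 to 0.56), but passed without DMSO library B (0.41, adjusted p = 0.0252), with median-ratio scaling (0.37, adjusted p = 0.0412) and with upper-quartile scaling (0.35, adjusted p = 0.0488). Without DMSO library A it was 0.16 (adjusted p = 0.258). TRIB1 differed by 0.02 (95% interval -0.33 to 0.38).

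These comparisons share libraries, so they are not independent of each other. In TPM, the resistant libraries stood above DMSO by 13.6% of the parental rise for TRIB3, 11.95% for SESN2, 14.9% for DDIT4 and 12.9% for NUPR1, and by 35.5% for EIF4EBP1. On the log2(TPM + 1) scale of the tests the shares were 44.0% for TRIB3, 32.9% for SESN2, 34.0% for DDIT4, 31.5% for NUPR1 and 45.9% for EIF4EBP1, so EIF4EBP1 stands apart in TPM but not on the log2 scale. These are ratios of differences between group means that share the DMSO level, given with no error.

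The genes that lay nearest to each member in pattern were found by the Euclidean distance of log2(TPM + 1), centred per gene, over the 6 libraries. For TRIB3 they were DDIT3, which encodes CHOP (distance 0.52), INHBE, an activin subunit gene (0.55), and CEBPB, a bZIP factor (0.99). SESN2 lay nearest to SLC6A9, a glycine transporter gene (0.30), ARHGAP9 (0.41) and NUPR1 (0.44). DDIT4 lay nearest to ARHGAP9 (0.39), XBP1 (0.47) and ATF3 (0.57), and NUPR1 to ATF3 (0.24), HERPUD1 (0.39) and ARHGAP9 (0.40). EIF4EBP1 lay nearest to IARS (0.12) and TARS (0.13), which encode aminoacyl-tRNA synthetases, and LARP1B (0.17).

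SESN1 and SESN3 were each other's nearest genes among all tested genes at 5 TPM or more, at a distance of 0.10. FAM110A and HGSNAT came next for both, at 0.10 and 0.11 for SESN1 and at 0.17 for SESN3. In all 4 the DMSO library A stood above B, so part of the likeness is a gap between those libraries. TRIB2 lay nearest to LINC00667 (0.13), CALML4 (0.15) and AP001468.1 (0.16), and all of these had B above A in every group. TRIB1, whose level hardly varied, lay nearest to PRKAA1 (0.07), COX11 (0.08) and FBXO22 (0.09). These too shared with it the direction of the gap between A and B in each group. For TRIB2 and TRIB1 as well, part of the likeness is thus a gap between libraries of a group.

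ATF4 itself stood at 249 ± 0.629 TPM (SD, n = 2) with DMSO, 655 ± 1.96 TPM in treated parental cells and 503 ± 16.0 TPM in resistant cells. Between the lines, both with the drug, ATF4 differed by -0.38 on the log2 scale (SE 0.04, adjusted p = 0.000308 by limma), where DDIT3 was lower by 5.93-fold and CEBPB by 4.03-fold in TPM. Of 13 transcription factors reported to act on these genes, ATF4, DDIT3 and CEBPB among them, 9 rose, 0 fell (0 also at an unadjusted p under 0.05 by limma) and 4 did not pass in parental cells with the drug. In resistant against treated parental cells 1 was higher, 8 were lower and 4 did not pass. The 1 higher factor was FOXO1, at 25.9 ± 1.43 TPM in treated parental and 48.1 ± 1.73 TPM in resistant cells, a difference of 0.87 (SE 0.11, adjusted p = 0.000552 by limma). RMS13 carries a PAX3-FOXO1 fusion gene, and reads of the fusion and of FOXO1 cannot be told apart here. FOXO1 was named after its values were seen. Against DMSO, 9 of the 13 factors were higher in resistant cells, 3 were lower and 1 did not pass. Counts of calls in this list and in those below have the shares over all tested genes as their background. With the drug in parental cells 22.6% were called higher and 18.2% lower. Between the lines with the drug the shares were 21.3% and 34.8%, and for resistant cells against DMSO 20.9% and 29.7%.

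Of 9 genes of the mTORC1 complex and its TSC-RHEB switch, 1 rose, 1 fell and 7 did not pass in parental cells with MAL3-101, with a median of -0.07. MLST8, an mTOR-binding subunit, rose by 0.29 (SE 0.06, adjusted p = 0.00672 by limma), but did not pass without parental MAL3-101 library B (0.25, adjusted p = 0.0650). TSC2 fell, at -0.29 (SE 0.08, adjusted p = 0.0263), and did not pass without DMSO library B (-0.27, adjusted p = 0.0594) or either parental MAL3-101 library (-0.24 and -0.35). MTOR, the kinase gene, stood at 44.1 ± 1.92 and 47.1 ± 0.389 TPM, a difference of 0.09 (95% interval -0.05 to 0.23). The count of 2 calls ranged from 0 to 6 when single libraries were left out.

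In resistant against treated parental cells, 4 of these 9 genes were higher, 3 lower and 2 did not pass. MTOR was lower, at 30.9 ± 0.156 against 47.1 ± 0.389 TPM (SD, n = 2), or -0.59 on the log2 scale (SE 0.06, adjusted p = 0.000180 by limma). TSC1, whose product stabilises the TSC brake, was higher, at 44.4 ± 0.346 against 25.4 ± 0.297 TPM, by 0.78 (SE 0.07, adjusted p = 0.000138). Against DMSO the split was again 4 higher, 3 lower and 2 not past the test. TSC1 was higher, by 0.90 (SE 0.07), as was TBC1D7, the third TSC subunit gene, by 0.65 (SE 0.08, adjusted p = 0.000514). TSC2 was lower, at -0.34 (SE 0.08, adjusted p = 0.0115), a call lost without resistant library A (-0.24, adjusted p = 0.0907).

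Of 28 genes of the amino acid sensing arm, on which sestrins act, 8 rose, 4 fell and 16 did not pass in parental cells with the drug, with a median of -0.02. BMT2, given as C7orf60, which encodes the methionine-pathway sensor SAMTOR, rose by 0.81 (SE 0.16, adjusted p = 0.00706 by limma), a call lost without parental MAL3-101 library A (0.77, adjusted p = 0.0586). SLC38A9, a lysosomal arginine sensor, rose by 0.73 (SE 0.09, adjusted p = 0.00124). The 12 calls fell to 1 without parental MAL3-101 library A, to 3 without its library B, to 6 without either resistant library and to 7 in a fit of the 4 libraries compared. In resistant against treated parental cells 7 were higher, 11 lower and 10 did not pass. RRAGD, a Rag GTPase gene, was higher, at 71.8 ± 1.46 against 31.6 ± 0.0919 TPM, by 1.16 (SE 0.11, adjusted p = 0.000122), while RRAGB, another, was lower, at -0.98 (SE 0.20, adjusted p = 0.00505). Against DMSO 6 were higher, 6 lower and 16 did not pass. NPRL2, a subunit of the GATOR1 brake, was lower there in resistant cells, at -0.88 (SE 0.11, adjusted p = 0.000666 by limma).

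**Figure D4:**
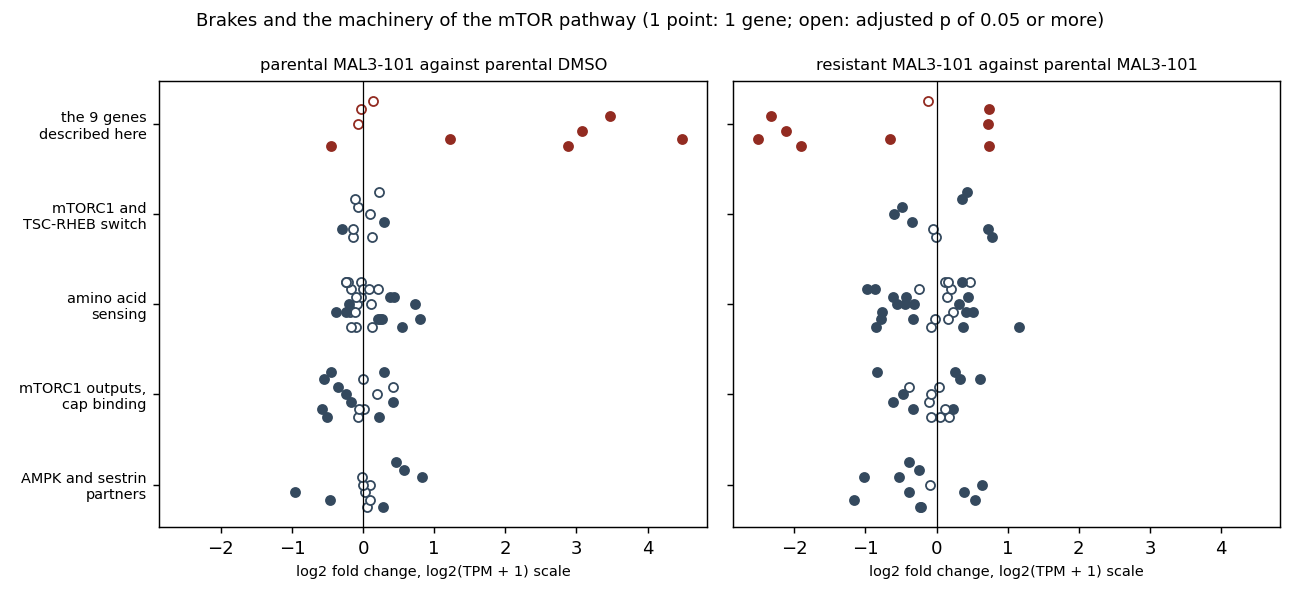
Log2 fold change on the log2(TPM + 1) scale (horizontal axis) of each tested gene of the 9-gene set and of 4 pathway lists, in parental cells with MAL3-101 against DMSO (left) and in resistant against treated parental cells (right). Filled points passed an adjusted p under 0.05. In the left panel TRIB3, SESN2, DDIT4, EIF4EBP1 and NUPR1 lie beyond 1, where no gene of the 4 lists lies. In the right panel RRAGD (1.16), SQSTM1 (-1.16) and PRKAB1 (-1.01) of these lists exceed 1 in size, while EIF4EBP1 (-0.66) does not. The lists of Tribbles partners and of transcription factors, not drawn here, do hold genes beyond 1 and reach 3.55 and 5.47.

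Among 16 tested genes of mTORC1 outputs and cap-binding translation factors, 3 rose, 7 fell and 6 did not pass in parental cells with the drug. EIF4A1, the eIF4A helicase gene, fell from 823 ± 94.97 to 549 ± 8.59 TPM (SD, n = 2), at -0.58 (SE 0.07, adjusted p = 0.00120 by limma). EIF4E2, a cap-binding relative of eIF4E, fell as well, at -0.54 (SE 0.05, adjusted p = 0.000399). The 10 calls fell to 4 without parental MAL3-101 library A and to 3 without its library B. In resistant against treated parental cells 4 were higher, 4 lower and 8 did not pass. RPS6KB1, the S6 kinase gene, was lower there, at -0.83 (SE 0.08, adjusted p = 0.000176), and EIF4A2, the second eIF4A gene, at -0.62 (SE 0.09, adjusted p = 0.000824). Against DMSO 9 of the 16 were lower and 1 higher in resistant cells, and without resistant library A the calls were 4, all lower.

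Partners of the Tribbles proteins numbered 9 tested genes, of which 3 rose and 2 fell in parental cells with the drug, or 2 and 1 without parental MAL3-101 library B. CEBPB, of a family with members that some but not all Tribbles proteins send for degradation, rose from 6.17 ± 2.63 to 80.2 ± 0.311 TPM (SD, n = 2), by 3.55 (SE 0.21, adjusted p = 5.77e-05 by limma). COP1, given as RFWD2, the ubiquitin ligase that Tribbles recruit, rose by 0.47 (SE 0.07, adjusted p = 0.00277). It was lower in resistant than in treated parental cells, at -0.58 (SE 0.07, adjusted p = 0.000535 by limma). Between the lines with the drug, 2 of the 9 partners were higher, 3 lower and 4 did not pass. Against DMSO 4 were higher in resistant cells and 5 did not pass. MAP2K4, a stress kinase gene, was higher in resistant cells than with DMSO, by 0.43 (SE 0.09, adjusted p = 0.00732), a call lost without resistant library A (0.38, adjusted p = 0.0701).

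AMPK genes and other sestrin partners numbered 12 tested genes, of which 4 rose, 2 fell and 6 did not pass in parental cells with the drug. PRKAB1, an AMPK subunit gene, rose by 0.83 (SE 0.07, adjusted p = 0.000194 by limma), and PRDX1, a peroxiredoxin gene, fell, at -0.95 (SE 0.04, adjusted p = 1.78e-05). In resistant against treated parental cells 3 were higher, 8 lower and 1 did not pass, but with median-ratio or upper-quartile scaling, or without any 1 of the 4 libraries with MAL3-101, 3 were higher and 4 lower. SQSTM1, which encodes the autophagy receptor p62, was lower at 66.9 ± 1.80 against 151 ± 2.88 TPM, or -1.16 on the log2 scale (SE 0.08, adjusted p = 3.90e-05). PRKAB1 was lower too, at -1.01 (SE 0.07, adjusted p = 2.85e-05). Against DMSO 2 were higher, 4 lower and 6 did not pass. STK11, the gene of the AMPK-activating kinase LKB1, was higher there in resistant cells, by 0.64 (SE 0.08, adjusted p = 0.000659 by limma).

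No other gene in GENCODE release 29 overlaps TRIB1, TRIB3, SESN2, EIF4EBP1 or NUPR1. Antisense genes overlap SESN1, SESN3 and DDIT4, and without a stated strand setting reads of a gene and its antisense partner cannot be told apart. EIF4EBP1P1, a processed copy of EIF4EBP1, was listed at no more than 0.340 TPM.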

How the data were processed

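RNA levels were measured in 6 libraries. The deposited tables hold TPM for every gene name, as the authors made them. RSEM, DESeq and hg19 are named in the submitters' processing notes; their versions and roles, the aligner, the annotation and the strand setting were not given in the sources used here. TPM keeps no depth, so no counting interval is given.

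Genes whose mean reached 1 TPM in any group were tested as log2(TPM + 1) with limma 3.58.1 in R 4.3.3, over group means of all 6 libraries with a mean-variance trend (3 residual and 4.17 prior degrees of freedom). Fold changes understate those of low genes. The code was tested on simulated data. The members and the 11 gene lists (132 of 133 genes found, 6 under an older symbol) were chosen with earlier results of these data known. Named genes are the 9 members, MTOR, ATF4, DDIT3, CEBPB, the close relatives, up to 2 called genes per pathway list and comparison with the largest change at 5 TPM or more, from which the text takes most, and the 3 genes nearest in pattern. A planned comparison of protein sequences was not made. Promoter sequences came by symbol from RefSeq on GRCh38.p14, with chromosome 8 left out. Alternatives were other pseudocounts and filters, fewer libraries, a replicate block, 3 other scalings and no trend; their use on pathway lists and other named genes was added after seeing the data. Figures were drawn with matplotlib 3.10.9. The result of 1 gene of a list is not reported here.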

Additional observations from a re-analysis of the deposited data

How the results depend on the processing

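The number of members called stayed within 1.5 times its value in all 48 runs, 5 to 6 for the drug in parental cells, 6 to 8 between the lines with the drug, and 5 to 8 when resistant cells were set against DMSO. TRIB3, SESN2, DDIT4, EIF4EBP1 and NUPR1 kept their direction and their call in every comparison and setting. In all, 413 values of members kept their side of the threshold, 11 lost a call and 5 gained one, and no called value changed sign. Of values that were not called, 5 did, for SESN1 and SESN3 with the drug in parental cells and for TRIB1 in resistant cells against DMSO. Leaving out 1 library in turn, the number of genes called over the whole table ranged from 3158 to 7708, from 5971 to 10105 and from 4955 to 8675 in the same order of comparisons. These ranges run both below and above the 6181, 8495 and 7662 genes called in the main fit, and their cause was not tested. A filter of 5 TPM left TRIB1 untested. FAM110A, a gene near SESN1 in pattern, reversed without DMSO library A, to 0.24 in parental cells with the drug, and was -0.35 without DMSO library B. With the replicate block 5942, 8381 and 7492 genes and 6, 8 and 8 members were called, the added one being TRIB2 for resistant cells against DMSO (0.29, adjusted p = 0.0160 by limma). Differences between A and B in 2 groups correlated across genes at no more than 0.03. A small shared effect could look the same, so this cannot show whether A and B were paired between groups. Nothing in the labels ties the letters to a common culture.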
